A study of Mus musculus with 9 samples.

Results

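The genes of iron transport, iron storage and plasma binding described here number 10 and follow iron from the blood into a cell and back out: Trf, Tfrc, Hfe, Steap4, Slc40a1, Cp, Fth1, Ftl1, Hp and Hpx. They were taken by symbol from the 17753 genes named in the deposited RNA-seq matrix, and each was carried by 1 matrix row. Of the 10 genes, 9 passed the filter on low values that 9913 of all genes passed, and Hpx did not. The genes were chosen by the roles of their products with their FPKM values in these 9 libraries known, so their levels are given as a description, without p-values.

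The groups were brown fat, white fat and soleus, each with 3 libraries, all from male C57BL/6J mice of wild-type genotype aged 3 months, with no treatment or allele that set the groups apart. Brown fat is the heat-making fat, white fat the lipid store, and soleus a slow muscle of posture. The labels state 3 mice and do not say which libraries share a mouse, so the spread is that between libraries. The sources used here do not name the white fat depot. Values are FPKM, the sequenced fragments of a gene divided by transcript length and by the library's mapped total, and so can be compared between genes per length. Replicates are given in the order 1, 2, 3. Read totals were not given, and relative depths read from the spacing of low values ran from 1 to 3.59.

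The labelled tissues were set against marker lists. The summed level of 7 brown adipocyte markers ran from 11799 to 13157 FPKM in brown fat, that of 6 adipocyte markers from 6056 to 6407 FPKM in white fat, and that of 7 muscle fibre markers from 22039 to 26242 FPKM in soleus. Mb and Ckm, 2 of these muscle genes, are listed at 0 in all soleus libraries, which can be a failed estimate, while Ckm stood at 4.87, 40.8 and 23.1 FPKM in brown fat. The brown adipocyte sum also ran from 4269 to 5641 FPKM in soleus, nearly all of it Cox8b at 4243 to 5623 FPKM. Ucp1, the uncoupling protein of brown fat, kept the tissues further apart, at 3386 to 4108 FPKM in brown fat, 1.45 to 35.7 FPKM in white fat and 0.617 to 4.14 FPKM in soleus. Libraries of the same tissue had a Pearson r across genes between 0.990 and 0.996, against 0.540 to 0.813 between tissues. Brown fat replicate 1 stood apart from the other brown fat libraries in some genes, among them Dio2, Elovl3, Alas1 and Hmox1. Its values are given where they touch a member.

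Iron travels in plasma bound to transferrin, the product of Trf, and enters cells when transferrin binds its receptor, the product of Tfrc. Inside the cell, iron is stored in ferritin, a shell of heavy and light chains encoded by Fth1 and Ftl1, and it leaves through ferroportin, the product of Slc40a1. Iron regulatory proteins bind a short RNA hairpin, the iron responsive element. In a 5′ untranslated region (UTR) this element lets the proteins block translation, as in the ferritins and ferroportin, and in the 3′ UTR of the transferrin receptor it lets them protect the messenger RNA. Haptoglobin and hemopexin, made by Hp and Hpx, bind free haemoglobin and free haem in plasma. The liver is the main source of most of these plasma proteins, and adipocytes are known to make haptoglobin as well.

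The hairpins found in 4 of the 10 genes are shown because they are the sequence feature that these members share. The search ran on the sense strand of 1 GENCODE M21 transcript a gene in build GRCm38. It asked for a C, 5 bases, the loop CAGTGN, and 5 bases that pair with the first 5, G-T pairs allowed. Each sequence below is 29 bases, 5′ to 3′, with the loop in capitals and T written for U.

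Fth1 5′ UTR: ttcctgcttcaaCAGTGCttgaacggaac
Ftl1 5′ UTR: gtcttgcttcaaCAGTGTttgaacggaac
Slc40a1 5′ UTR: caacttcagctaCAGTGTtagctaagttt
Tfrc 3′ UTR, copy 1: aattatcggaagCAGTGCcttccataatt
Tfrc 3′ UTR, copy 2: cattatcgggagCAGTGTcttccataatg
Tfrc 3′ UTR, copy 3: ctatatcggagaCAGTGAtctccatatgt
Tfrc 3′ UTR, copy 4: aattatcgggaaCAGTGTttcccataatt

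The Fth1 hairpin lay at chr19:9982732-9982760 on the plus strand, the Ftl1 hairpin at chr7:45459779-45459807 on the minus strand and the Slc40a1 hairpin at chr1:45925465-45925493 on the minus strand. The 4 Tfrc hairpins lay on the plus strand at chr16:32631219-32631247, chr16:32631598-32631626, chr16:32631663-32631691 and chr16:32631710-32631738. Each lay within a single exon. The pattern was found in the 5′ UTR of 18 of 20512 genes (0.0878%), or 9 of 16294 (0.0552%) where the 5′ UTR was at most 319 bases, the length of that of Slc40a1. In the 3′ UTR it was found in 106 of 20512 genes (0.517%), and in 25 of 2165 (1.15%) whose 3′ UTR was within 20% of the 2458 bases of that of Tfrc. Of these 2165 genes, Tfrc was the 1 with 3 or more matches. Trf, Hfe, Steap4, Cp, Hp and Hpx had no match to these letters in either UTR. Among the other iron and haem genes described further on, Alas2 had a match in its 5′ UTR and Bola3 a match in its 3′ UTR. Genes on chromosome 18 were left out of this statement, but not out of the shares above. A match is a description of the letters, and binding was not measured here.

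In FPKM, the libraries of all 3 tissues overlapped in Fth1, while most other members differed by tissue. White fat held the highest Trf, Hp, Steap4, Hfe, Cp and Ftl1, soleus held the highest Tfrc, and brown fat held the highest Slc40a1. On the log2(FPKM + 1) scale, and counting only the 9 genes that passed the filter, 1 gene was higher and 6 were lower by at least 1 log2 unit in brown fat against white fat, where 12.5% of all tested genes were that much higher and 14.0% that much lower. Against soleus, 5 were higher and 1 lower in brown fat (21.6% and 11.3% of all tested genes). In white fat against soleus 6 were higher and 1 lower (27.1% and 14.2% of all tested genes). Counted by libraries that do not overlap between the tissues, 1 was higher and 6 lower in brown fat against white fat (40.6% and 36.9% of all tested genes), 7 higher and 1 lower in brown fat against soleus (54.1% and 27.0%), and 7 higher and 1 lower in white fat against soleus (55.1% and 30.5%). Since the genes were chosen with these values known, nothing is read from these counts. The median differences were -1.32, 1.48 and 3.02 log2 units in the 3 comparisons, against 0.03, 0.29 and 0.35 over all tested genes.

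**Figure D1:**
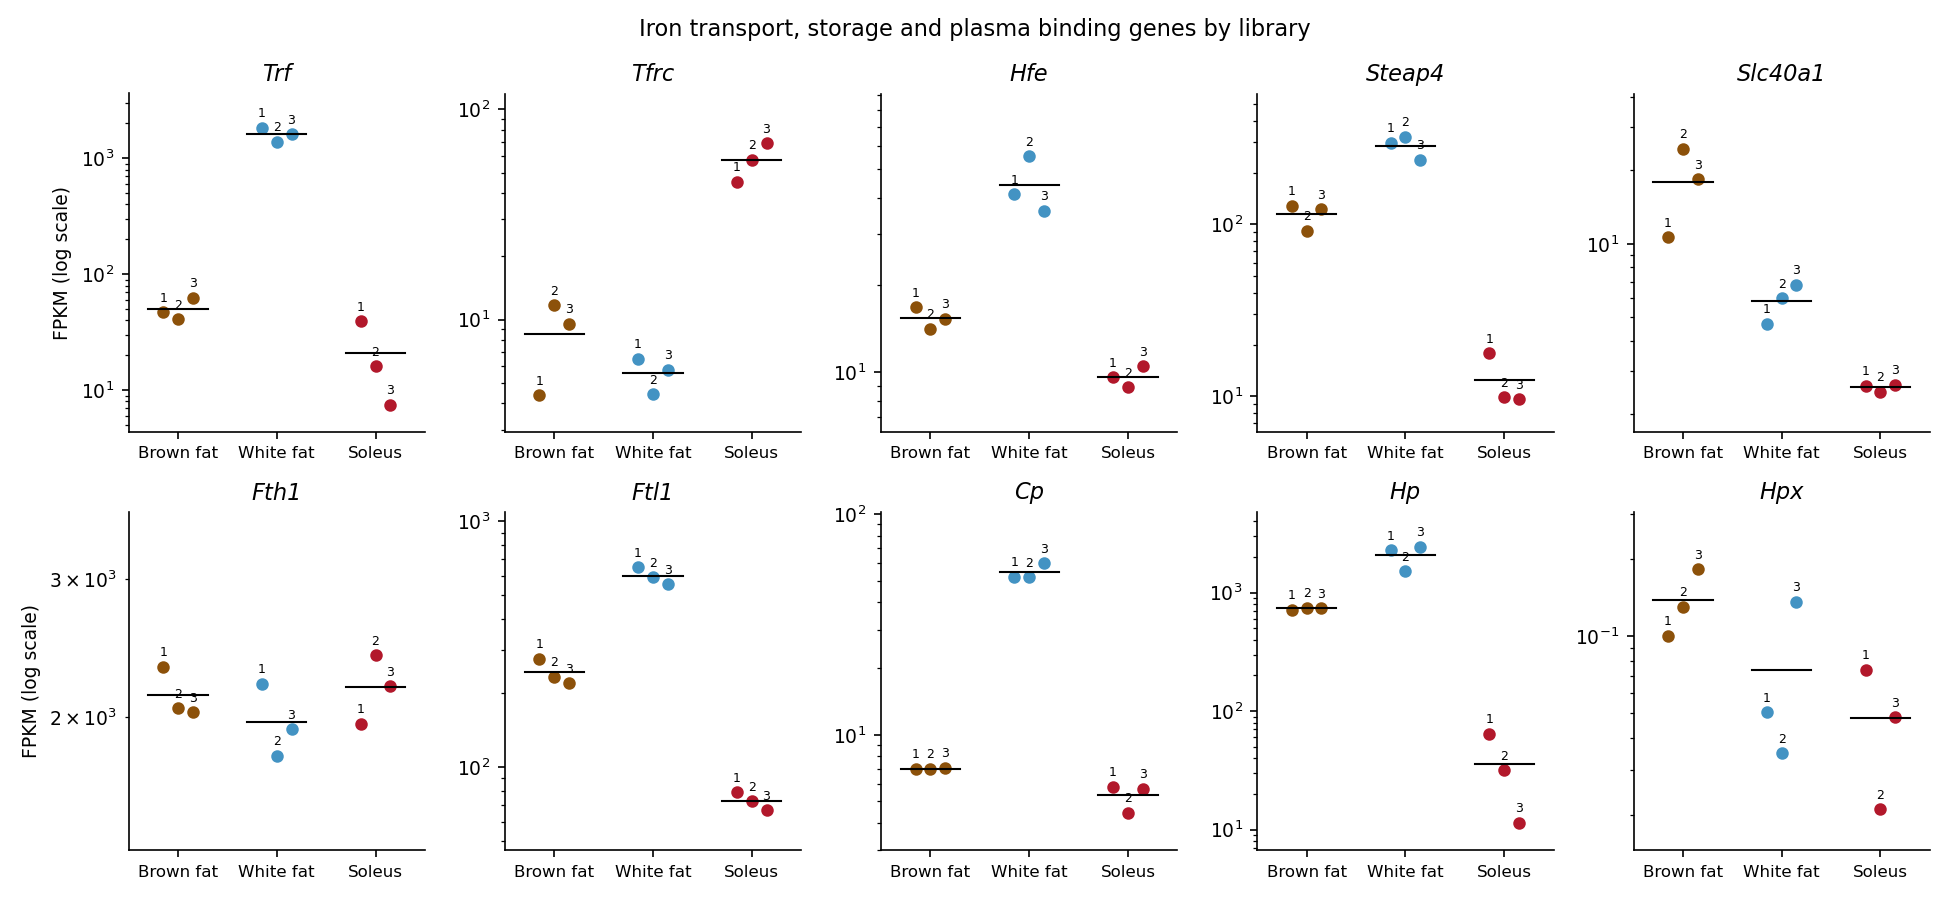
FPKM of the 10 genes in each library, on a log axis of its own for each gene; points are libraries numbered by replicate and lines are tissue means (n = 3). Fth1 stays between 1785 and 2399 FPKM in all 9 libraries, whereas Trf runs from 7.52 FPKM in a soleus library to 1835 FPKM in a white fat library.

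Trf was the gene with the widest range of the set. It stood at 47.0, 40.8 and 62.9 FPKM in brown fat, 1835, 1390.0 and 1617 FPKM in white fat, and 39.4, 16.1 and 7.52 FPKM in soleus. White fat lay far above both other tissues in every library, and each brown fat library lay above each soleus library by a smaller margin. Brown fat differed from white fat by -4.99 log2 units (SE 0.43), a 32.1-fold lower mean, and white fat from soleus by 6.47 (SE 0.43). The first of these was -5.58 after every library was rescaled to a common FPKM total and -5.96 after quantile normalization. The second was 7.06 without soleus replicate 1, 5.93 without soleus replicate 3 and 7.09 after quantile normalization. Trf ranked 8th of all genes in white fat, against 929th in brown fat and 1708th in soleus. In soleus the 3 libraries spread widely, and the difference of brown fat from soleus, 1.48 log2 units (SE 0.43), was 2.06 without soleus replicate 1 and 0.94 without soleus replicate 3.

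The soleus spread of Trf ran beside that of an adipocyte gene. Adipoq, which encodes the adipocyte hormone adiponectin, stood at 1058, 1061 and 906 FPKM in brown fat, 3067, 2573 and 2989.8 FPKM in white fat, and 77.1, 31.8 and 12.4 FPKM in soleus. The summed level of 6 adipocyte markers was 386, 271 and 236 FPKM in the soleus libraries. Most of this sum was Cd36, at 232, 212 and 207 FPKM, while Cidec, another of these markers, stood at 45.2, 13.2 and 6.03 FPKM. The ratio of Trf to Adipoq was 0.0444, 0.0385 and 0.0695 in the brown fat libraries, 0.598, 0.540 and 0.541 in those of white fat, and 0.511, 0.506 and 0.607 in those of soleus. Soleus and white fat overlapped in this ratio, and brown fat lay below both in every library. The part that adipocyte RNA in the muscle samples plays in the soleus level was not tested. In bulk tissue, fewer cells of a type and less RNA per cell cannot be told apart.

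**Figure D2:**
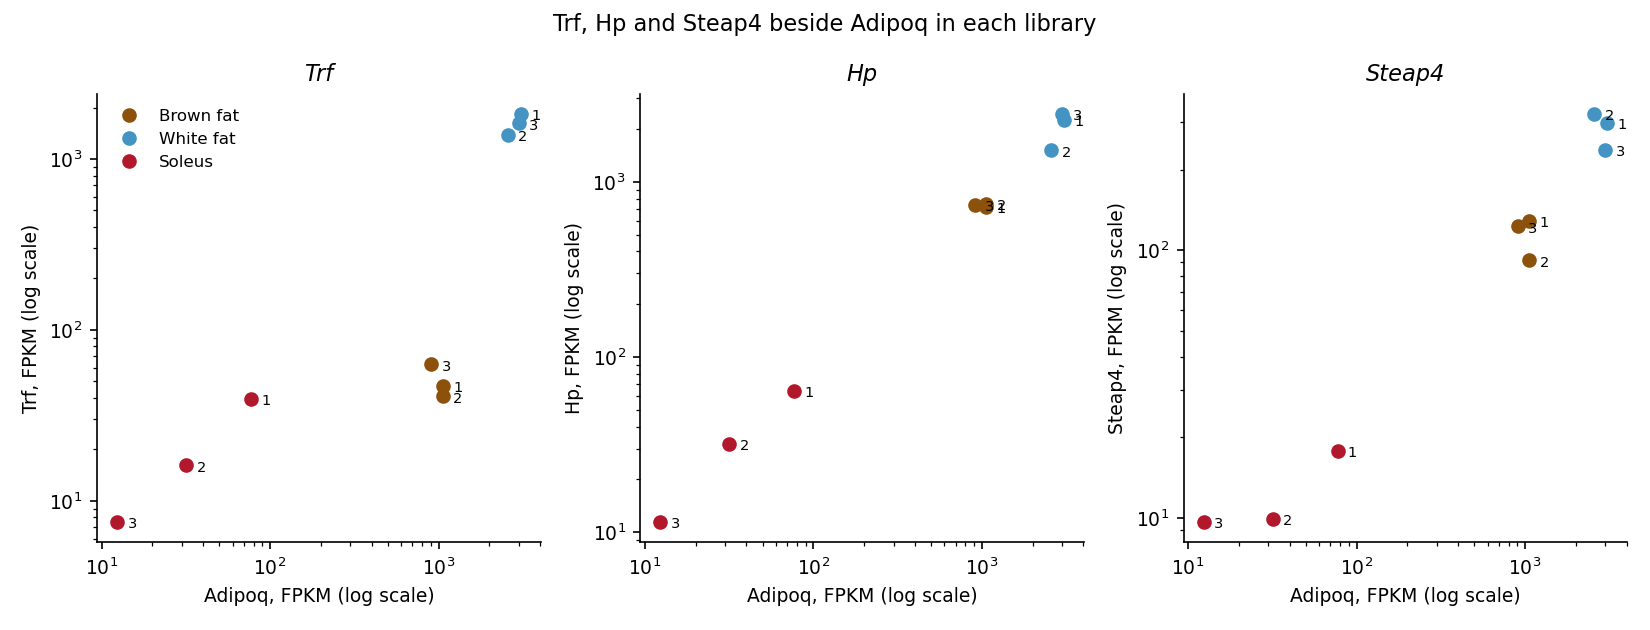
FPKM of Trf, Hp and Steap4 (vertical, log scale) against Adipoq (horizontal, log scale) in each library, numbered by replicate within tissue. Among the soleus libraries, the one with the most Adipoq (77.1 FPKM) has the most of all 3 genes, and the brown fat libraries hold 40.8 to 62.9 FPKM of Trf at 906 to 1061 FPKM of Adipoq.

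Tfrc, the receptor that takes up loaded transferrin, was highest where Trf was lowest. It stood at 4.37, 11.7 and 9.55 FPKM in brown fat, 6.53, 4.43 and 5.77 FPKM in white fat, and 45.4, 57.6 and 69.0 FPKM in soleus. Every soleus library lay above every fat library, and the brown fat and white fat libraries overlapped. The difference from soleus was -2.68 log2 units in brown fat (SE 0.28) and -3.14 log2 units in white fat (SE 0.28), the second of which was -2.55 with a pseudocount of 5. The difference between brown and white fat, 0.46 log2 units (SE 0.28), did not exceed the spread between libraries: it was 0.83 without brown fat replicate 1 and -0.05 after rescaling to a common total. Soleus had the highest receptor and the lowest transferrin transcript. The ratio of Trf to Tfrc was 10.7, 3.48 and 6.59 in the brown fat libraries, 281, 314 and 280.2 in those of white fat, and 0.868, 0.279 and 0.109 in those of soleus.

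Hfe encodes a membrane protein that binds the transferrin receptor and is mutated in the common hereditary iron overload of humans. It stood at 16.8, 14.1 and 15.3 FPKM in brown fat, 41.1, 55.6 and 36.0 FPKM in white fat, and 9.62, 8.90 and 10.5 FPKM in soleus. The 3 tissues did not overlap. The difference of brown fat from white fat was -1.44 log2 units (SE 0.14). Its difference from soleus was 0.62 (SE 0.14), or 0.24 to 0.29 under the 3 scalings that centre all genes (median of ratios, upper quartile and quantile). White fat and soleus differed by 2.06 log2 units (SE 0.14).

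Steap4 encodes a metalloreductase of membranes that reduces ferric iron and copper. It stood at 129, 91.7 and 123 FPKM in brown fat, 299, 323 and 237 FPKM in white fat, and 17.8, 9.89 and 9.65 FPKM in soleus. The tissues kept apart in every library, with brown fat between the others. Brown fat differed from white fat by -1.32 log2 units (SE 0.22) and from soleus by 3.14 (SE 0.22), and white fat differed from soleus by 4.46 (SE 0.22). The first of these was -1.91 after rescaling to a common total and -2.15 after quantile normalization. The ratio of Steap4 to Adipoq overlapped between the fats, at 0.122, 0.0864 and 0.136 in the brown fat libraries and 0.0974, 0.125 and 0.0793 in white fat. In soleus it was 0.230, 0.311 and 0.780, above every fat library, with the highest value where Adipoq was lowest.

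Slc40a1, the gene of the iron exporter ferroportin, was the member that was highest in brown fat. It stood at 10.7, 24.5 and 18.4 FPKM in brown fat, 4.71, 5.99 and 6.81 FPKM in white fat, and 2.62, 2.48 and 2.64 FPKM in soleus. No tissue overlapped another, and the brown fat libraries spread the most. On the log2 scale brown fat was 1.4 above white fat (SE 0.23) and 2.32 above soleus (SE 0.23), the second of which was 1.54 with a pseudocount of 5. The difference from white fat was 1.71 without brown fat replicate 1, 1.15 without brown fat replicate 2 and 0.88 after rescaling to a common total. White fat was 0.92 above soleus (SE 0.23), or 0.55 to 1.38 across the scalings.

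Brown fat replicate 1 held the lowest Tfrc and Slc40a1 and the highest Fth1 and Ftl1 of its tissue. The same library differed in other genes. Alas1, the first enzyme of haem synthesis, stood there at 79.3 FPKM, against 136 and 167 FPKM in replicates 2 and 3. Hmox1, the inducible haem oxygenase, stood at 9.01 FPKM, against 3.54 and 3.92 FPKM. Of the brown adipocyte markers, Dio2 stood at 72.4 FPKM, against 21.1 and 33.1 FPKM, and Elovl3 at 69.7 FPKM, against 18.2 and 23.3 FPKM. Ppargc1a stood at 20.8 FPKM, against 8.92 and 12.1 FPKM. The other markers with a row did not set replicate 1 apart. Ucp1 was at 3386, 4108 and 3562 FPKM in replicates 1, 2 and 3, and Cidea at 2170, 2352 and 2058 FPKM. Cox8b was at 6568, 6558 and 6035 FPKM, and Otop1 at 91.7, 90.8 and 76.0 FPKM. Its muscle fibre marker sum was 66.5 FPKM, against 119 and 87.6 FPKM in the others. What set this library apart was not tested.

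Cp encodes ceruloplasmin, a copper-carrying ferroxidase that oxidises exported iron for transferrin. It stood at 7.01, 7.01 and 7.08 FPKM in brown fat, 52.2, 52.0 and 60.0 FPKM in white fat, and 5.81, 4.44 and 5.70 FPKM in soleus. White fat lay apart from both other tissues, and brown fat lay just above soleus in every library. Brown fat differed from white fat by -2.79 log2 units (SE 0.10), and white fat from soleus by 3.15 (SE 0.10), or 2.53 with a pseudocount of 5. The brown fat difference from soleus, 0.35 log2 units (SE 0.10), was 0.00 to 0.03 under the same 3 scalings. Macrophage markers also differed between the tissues: the summed level of 9 of them ran from 46.7 to 56.2 FPKM in brown fat, 472 to 595 FPKM in white fat and 33.3 to 47.2 FPKM in soleus. So did fibroblast and progenitor markers, of which 7 of 8 had a row: their sum was 193 to 218 FPKM in brown fat, 1042 to 1195 FPKM in white fat and 341 to 455 FPKM in soleus. Mesothelial markers, of which 6 of 8 had a row, summed to 1.2 to 1.42 FPKM in brown fat, 71.3 to 107 FPKM in white fat and 0.262 to 2.17 FPKM in soleus. The part of these cell types in the white fat levels of Cp, Hfe and the other members was not tested.

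Fth1, the ferritin heavy chain with ferroxidase activity, was the most abundant member in brown fat and soleus. It stood at 2319.6, 2054 and 2028 FPKM in brown fat, 2206, 1785 and 1931 FPKM in white fat, and 1962, 2399 and 2189.9 FPKM in soleus. All 3 tissues overlapped, and the highest library was 1.34-fold above the lowest. Only 287 of 9913 tested genes (2.90%) had so narrow a range, and 2 of the 425 (0.471%) with a mean of at least 100 FPKM, Fth1 among them. Brown fat differed from white fat by 0.12 log2 units (SE 0.14) and from soleus by -0.03 (SE 0.14), and white fat differed from soleus by -0.15 (SE 0.14). These small differences depended on the scaling: after rescaling to a common total they were -0.47, -0.06 and 0.41, and after median of ratios scaling they were 0.18, -0.44 and -0.62. After quantile normalization they were -0.96, 0.01 and 0.97.

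Ftl1, the light chain that helps iron nucleate in the ferritin core, differed between the tissues in FPKM. It stood at 277, 233 and 220.2 FPKM in brown fat, 649.7, 593 and 555 FPKM in white fat, and 79.2, 72.6 and 66.9 FPKM in soleus. No library of a tissue overlapped those of another. The brown fat level differed from that of white fat by -1.30 log2 units (SE 0.11) and from that of soleus by 1.72 (SE 0.11). White fat differed from soleus by 3.02 log2 units (SE 0.11), or 3.70 after quantile normalization. Rescaling and quantile normalization made the difference of brown fat from white fat -1.89 and -2.35.

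The balance of the chains is a ratio within each library, which a scaling factor does not change. Fth1 over Ftl1 in FPKM was 8.38, 8.81 and 9.21 in the brown fat libraries, 3.40, 3.01 and 3.48 in those of white fat, and 24.8, 33.1 and 32.7 in those of soleus. Its mean was 8.80 ± 0.414 for brown fat, 3.30 ± 0.251 for white fat and 30.2 ± 4.69 for soleus (SD, n = 3 each), without overlap. The FPKM of both chains together ran from 2248 to 2596 in brown fat, 2378 to 2856 in white fat and 2041 to 2472 in soleus, which overlapped. Both genes have near-identical processed copies, with 7 ferritin pseudogenes in the RefSeq gene table, and reads shared with them may have been split or dropped, so these levels are uncertain.

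**Figure D3:**
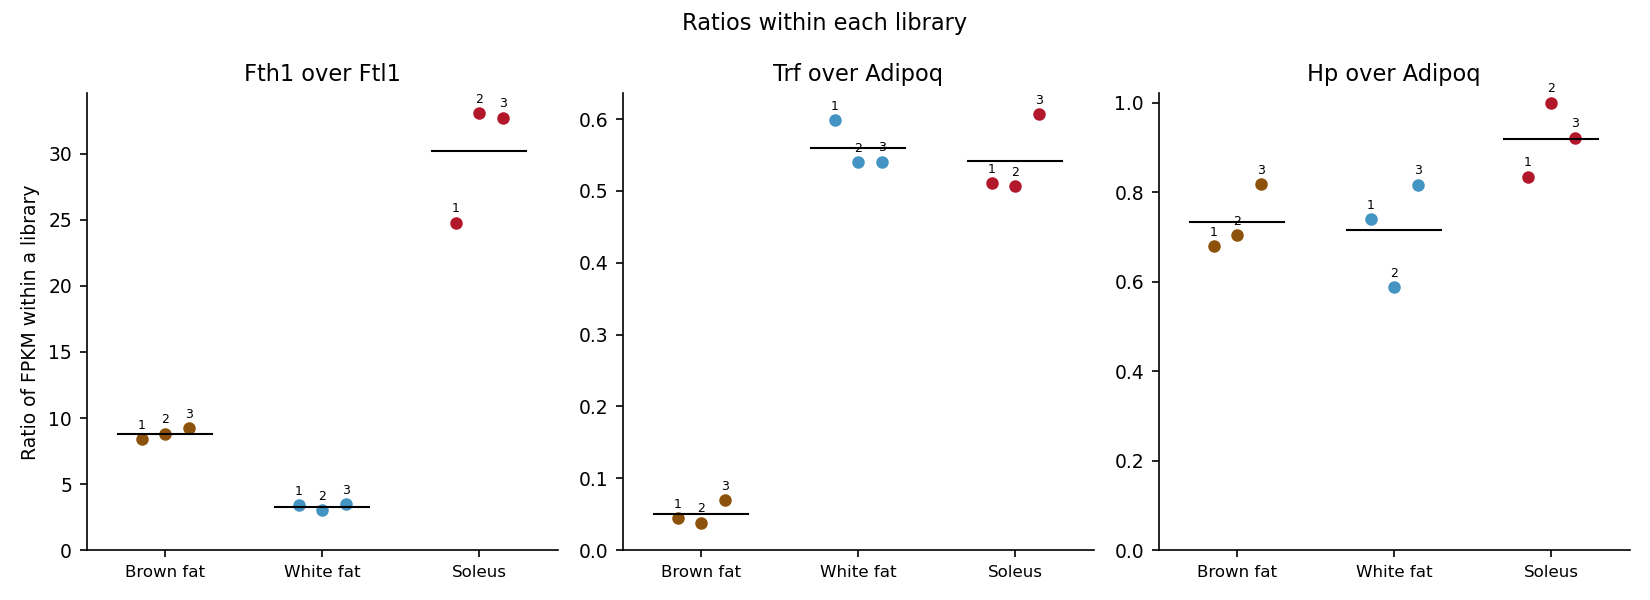
Ratios of FPKM within each library for Fth1 over Ftl1, Trf over Adipoq and Hp over Adipoq; points are libraries numbered by replicate, lines are means (n = 3) and axes start at 0. Fth1 over Ftl1 separates all 3 tissues, Trf over Adipoq sets brown fat apart, and Hp over Adipoq lies between 0.588 and 1.00 in every library.

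Hp, the gene of haptoglobin, was among the most abundant transcripts of white fat. It stood at 719, 747 and 741 FPKM in brown fat, 2267, 1513 and 2441 FPKM in white fat, and 64.3, 31.8 and 11.4 FPKM in soleus. It ranked 72nd of all genes in brown fat, 5th in white fat and 1065th in soleus, and the tissues did not overlap. Between brown and white fat the difference was -1.46 log2 units (SE 0.46), or -2.05 after rescaling to a common total and -2.73 after quantile normalization. Between brown fat and soleus it was 4.63 (SE 0.46), or 5.19 without soleus replicate 1 and 3.99 without soleus replicate 3. White fat differed from soleus by 6.09 (SE 0.46), which was 6.65 without soleus replicate 1, 5.46 without soleus replicate 3 and 6.81 after quantile normalization.

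Hp ran nearer to Adipoq than Trf did in brown fat. The ratio of Hp to Adipoq was 0.680, 0.704 and 0.818 in the brown fat libraries, 0.739, 0.588 and 0.816 in those of white fat, and 0.834, 1.00 and 0.922 in those of soleus. Brown and white fat overlapped, and soleus lay just above both. The ratio of Trf to Hp was 0.0653, 0.0547 and 0.0850 in the brown fat libraries, against 0.809, 0.919 and 0.662 in those of white fat and 0.612, 0.506 and 0.659 in those of soleus. Brown fat lay apart in this ratio, at less Trf transcript per Hp transcript than the other tissues in every library.

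Hpx, the gene of hemopexin, was near the floor in all 3 tissues. It stood at 0.10, 0.131 and 0.183 FPKM in brown fat, 0.0503, 0.0348 and 0.136 FPKM in white fat, and 0.0740, 0.0210 and 0.0481 FPKM in soleus. White fat overlapped both other tissues, and no difference is drawn from such low values. Hepatocyte markers were low as well: the summed level of 10 of them ran from 3.30 to 5.23 FPKM in brown fat, 6.28 to 7.40 FPKM in white fat and 2.40 to 2.95 FPKM in soleus. Of these, 5 were listed at 0 throughout brown fat, 0 throughout white fat and 1 throughout soleus, and the albumin gene Alb was at 3.59 to 4.21 FPKM in white fat. Red cell markers, from 4 of 10 listed genes with a row, summed to between 4.78 and 7.94 FPKM in brown fat, 6.40 and 11.6 FPKM in white fat and 1.37 and 2.42 FPKM in soleus.

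The genes most like each member were sought among 4855 tested genes by Pearson's r over the 9 libraries on log2(FPKM + 1). These libraries fall into 3 tissues, so r rests largely on 3 tissue means. For Trf the closest were Serpina3c (r = 0.998), Sucnr1 (0.997) and Retn (0.996), the resistin gene. For Hp they were Adipoq (0.998), Cidec (0.996) and Slc1a5 (0.994), of which Cidec encodes a lipid droplet protein of adipocytes. For Steap4 they were Mmd, Sntb1 and Cept1 (0.997, 0.997 and 0.996), and for Hfe Rps6ka3, Adgre5 and Ece1 (0.997, 0.992 and 0.991).

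The remaining members had partners of other kinds. For Cp the closest were Mrc1, Tspan5 and C1qb (0.998 each), of which Mrc1 and C1qb are known macrophage genes. For Tfrc they were the muscle genes Actn3 (0.994), Synm (0.989) and Casq1 (0.988). For Slc40a1 they were Irf4 (0.993), Id2 (0.986) and Sbno2 (0.986), of which Irf4 stood at 9.48, 48.3 and 19.5 FPKM in the brown fat libraries, lowest in replicate 1 as Slc40a1 was. For Ftl1 they were Itm2b, Pdia3 and S100a11 (0.999, 0.998 and 0.998). Fth1, which varied little in FPKM, had lower values, with Mbd3 (0.912), Gtf2b (0.895) and Mrfap1 (0.886).

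Other genes of iron and haem handling show what surrounds the members. Of 87 such genes in 9 lists, 80 had a row and 68 passed the filter. In brown fat against white fat, limma with Benjamini-Hochberg adjustment over all tested genes called 41 higher and 15 lower at an adjusted p under 0.05, where 38.0% of all tested genes were called higher and 34.8% lower. For brown fat against soleus it called 45 higher and 9 lower (52.9% and 25.6% of all tested genes). For white fat against soleus it called 28 higher and 30 lower (54.5% and 29.7%). These shares of all tested genes also stand behind the counts of each list below, and nothing is read from a count near its share. The split of the called iron genes leans on the scaling. After rescaling to a common total, brown fat against white fat gave 23 higher and 27 lower, with the median of all genes at -0.43 in place of 0.03 log2 units, and white fat against soleus gave 40 higher and 14 lower, with the median of all genes at 0.78 in place of 0.35. After median of ratios scaling, brown fat against soleus gave 31 higher and 20 lower with the median of all genes at -0.01, and white fat against soleus gave 23 higher and 37 lower with that median at -0.02.

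Mitochondrial iron and iron-sulphur cluster genes, which build the clusters that respiratory enzymes need, were the group most often higher in brown fat than in white fat. Of 25 listed genes 22 had a row, all tested. In brown fat against white fat 20 rose and 1 fell (38.0% and 34.8% of all tested genes), with a median of 1.11 log2 units. After rescaling to a common total 16 rose and 2 fell. Cisd1, an iron-sulphur protein of the outer mitochondrial membrane, averaged 208 ± 6.56 FPKM in brown fat, against 50.6 ± 5.51 FPKM in white fat (SD, n = 3 each), a difference of 2.02 log2 units (standard error 0.10, limma adjusted p = 2.5e-08). Hspa9, the mitochondrial chaperone that passes clusters on, differed by 1.96 (standard error 0.09, limma adjusted p = 1.1e-08). Against soleus, 15 rose and 3 fell in brown fat, and these numbers were 9 and 7 under each of the 3 scalings that centre all genes. Nubpl, an assembly factor of complex I, was 1.68 log2 units higher in brown fat than in soleus (standard error 0.09, limma adjusted p = 2.1e-08). In white fat against soleus 3 rose and 17 fell, but 6 rose and 6 fell after rescaling. Bola3 differed by -2.10 log2 units (standard error 0.12, limma adjusted p = 3.7e-08).

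Of 9 genes of cytosolic iron-sulphur cluster assembly, 6 rose and 1 fell in brown fat against white fat, and 3 rose and 3 fell after rescaling. Ciapin1 differed by 2.35 log2 units (standard error 0.12, limma adjusted p = 2.6e-08) and Ciao2a by 1.83 (standard error 0.10, limma adjusted p = 3.3e-08), while Mms19 differed by -0.47 (standard error 0.06, limma adjusted p = 4.3e-05). Against soleus, 6 rose and 1 fell in brown fat (4 and 3 with median of ratios scaling), and 3 rose and 5 fell in white fat (5 and 4 after rescaling). Nubp2 was higher in brown fat than in soleus by 1.31 log2 units (standard error 0.08, limma adjusted p = 5.2e-08), and Ciao3 differed by -1.51 in white fat against soleus (standard error 0.07, limma adjusted p = 7.5e-09).

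Haem synthesis has 9 listed genes, all tested. Against white fat, 5 rose and 0 fell in brown fat, but 2 rose and 3 fell after rescaling. Urod and Uros, enzymes that build the porphyrin ring, differed by 1.05 (standard error 0.08, limma adjusted p = 3.6e-07) and 0.86 log2 units (standard error 0.09, limma adjusted p = 5.4e-06). Against soleus, 7 rose and 1 fell in brown fat: Alas1 differed by 1.07 (standard error 0.24, limma adjusted p = 0.0019), and Cpox by -1.03 (standard error 0.07, limma adjusted p = 9.8e-08). In white fat against soleus 4 rose and 4 fell, or 5 and 1 after rescaling and 1 and 4 with median of ratios scaling. Alas2, the form of the first enzyme that red cell precursors use, stood at 6.00 ± 1.59 FPKM in brown fat, 8.07 ± 3.01 FPKM in white fat and 1.95 ± 0.545 FPKM in soleus (SD, n = 3 each).

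In haem breakdown, Hmox1 was highest in white fat. This gene stood at 9.01, 3.54 and 3.92 FPKM in brown fat, 16.1, 22.2 and 19.8 FPKM in white fat, and 3.55, 3.22 and 3.53 FPKM in soleus. It differed by -1.73 log2 units in brown fat against white fat (standard error 0.25, limma adjusted p = 8.8e-05) and by 2.19 in white fat against soleus (standard error 0.25, limma adjusted p = 8.8e-06). Of the 4 tested genes of this list, 2 rose and 1 fell in brown fat against white fat, though 0 rose and 2 fell after rescaling. The same list had 3 higher and 0 lower in brown fat against soleus and in white fat against soleus. Blvrb, a biliverdin reductase, was 2.48 log2 units higher in brown fat than in soleus (standard error 0.07, limma adjusted p = 1.6e-10).

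Receptors, importers and exporters other than the members were counted in the same way, and nothing is read from so few genes. Of 14 listed genes 12 had a row and 9 were tested. In brown fat against white fat 3 rose and 5 fell (38.0% and 34.8% of all tested genes). In brown fat against soleus 5 rose and 1 fell (52.9% and 25.6%), and in white fat against soleus 6 rose and 2 fell (54.5% and 29.7%). Cd163, the macrophage receptor for haptoglobin bound to haemoglobin, stood at 1.59, 2.18 and 2.35 FPKM in brown fat, 21.3, 27.3 and 28.6 FPKM in white fat, and 2.29, 1.14 and 2.91 FPKM in soleus. It differed by -3.14 log2 units in brown fat against white fat (standard error 0.20, limma adjusted p = 1.5e-07) and is itself one of the macrophage markers. Scara5, a receptor for ferritin, differed by -2.97 (standard error 0.20, limma adjusted p = 1.9e-07). Lrp1, the receptor for haem bound to hemopexin, was highest in white fat, with 3.02 log2 units in white fat against soleus (standard error 0.11, limma adjusted p = 1.1e-09). Its difference was -1.26 in brown fat against white fat (standard error 0.11, limma adjusted p = 1.8e-06) and 1.76 in brown fat against soleus (standard error 0.11, limma adjusted p = 8.5e-08). Slc11a2, the iron importer DMT1, was 0.66 higher in brown than in white fat (standard error 0.08, limma adjusted p = 2.8e-05), but 0.14 and no longer called after rescaling.

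Of 6 listed reductases and ferroxidases 5 had a row, and the 3 tested fell in brown fat against white fat. One of the 3, Steap2, passed the filter only through white fat, at 1.24, 1.01 and 1.38 FPKM, so white fat had to be its higher tissue. Heph, which encodes the membrane ferroxidase hephaestin and is a relative of Cp, stood at 1.73, 1.76 and 2.07 FPKM in brown fat, 24.6, 24.0 and 23.1 FPKM in white fat, and 0.618, 0.234 and 0.141 FPKM in soleus. It had the tissue order of Cp, with differences of -3.13 log2 units in brown fat against white fat (standard error 0.12, limma adjusted p = 3.4e-09) and 4.24 in white fat against soleus (standard error 0.12, limma adjusted p = 1.5e-10). Steap3, the reductase of endosomes that take up transferrin, differed by -0.98 in brown fat against white fat (standard error 0.14, limma adjusted p = 0.00011). Heph and Steap3 were higher in white fat than in soleus, as was Steap2 by way of the filter, and Heph was higher in brown fat than in soleus.

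Among the regulators of iron balance, Aco1 and Hjv differed most between fat and muscle. Aco1, the iron regulatory protein that is an aconitase when it holds an iron-sulphur cluster, stood at 90.5, 91.3 and 79.9 FPKM in brown fat, 63.3, 61.3 and 55.7 FPKM in white fat, and 6.12, 5.05 and 5.72 FPKM in soleus. It was 3.74 log2 units higher in brown fat than in soleus (standard error 0.09, limma adjusted p = 3.9e-11) and 3.21 higher in white fat than in soleus (standard error 0.09, limma adjusted p = 1.5e-10). Ireb2, the other iron regulatory protein, was 0.69 higher in brown fat than in soleus (standard error 0.07, limma adjusted p = 3.4e-06). The ratio of Aco1 to Ireb2 was 8.54, 8.87 and 7.98 in the brown fat libraries, 6.82, 6.01 and 5.83 in those of white fat, and 1.06, 0.869 and 0.891 in those of soleus. These are the proteins that read the hairpins of Fth1, Ftl1, Slc40a1 and Tfrc shown above, and their binding was not measured.

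Hjv, which encodes hemojuvelin and is known from muscle and liver as a coreceptor that raises hepcidin, stood at 0.149, 1.02 and 0.547 FPKM in brown fat, 0.0528, 0.0488 and 0.0478 FPKM in white fat, and 210.2, 241 and 247 FPKM in soleus. It differed from soleus by -7.25 log2 units in brown fat (standard error 0.16, limma adjusted p = 2.6e-11) and by -7.79 in white fat (standard error 0.16, limma adjusted p = 1.8e-11). Fbxl5, the iron sensor that marks Ireb2 for degradation, differed by -0.79 in brown fat against white fat (standard error 0.07, limma adjusted p = 2.7e-06). Over the 7 tested regulators of 10 with a row, 3 rose and 2 fell in brown fat against white fat (1 and 3 after rescaling), 4 rose and 3 fell in brown fat against soleus (2 and 4 with median of ratios scaling), and 3 rose and 2 fell in white fat against soleus (3 and 3 with the same scaling). Among these 7, Erfe passed the filter only through soleus, at 1.86, 1.18 and 1.75 FPKM, so soleus had to be its higher tissue. Hjv likewise passed by way of soleus, since brown fat replicate 2 was its only fat library at 1 FPKM or more. The filter thus set the direction of both genes against soleus, and nothing is read from their calls there.

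**Figure D4:**
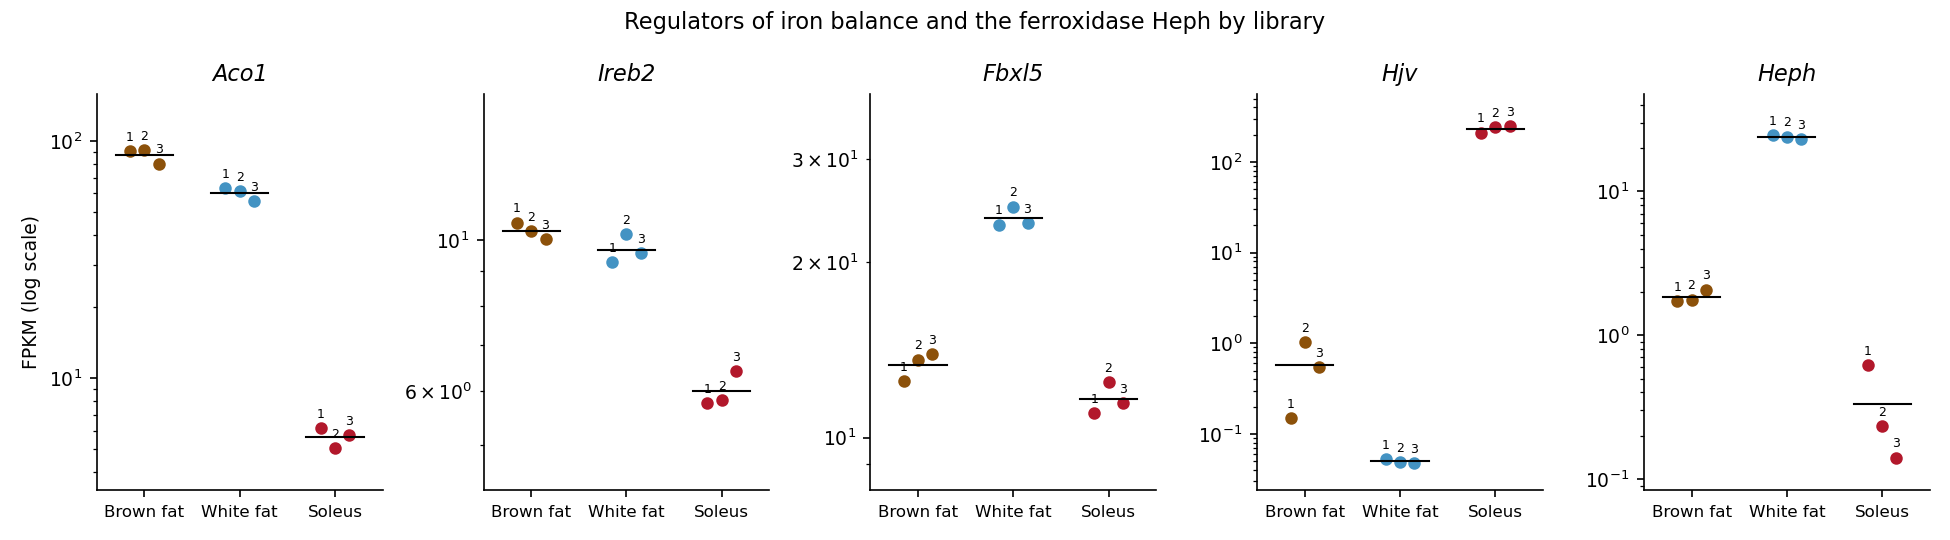
FPKM of the iron regulators Aco1, Ireb2, Fbxl5 and Hjv and of the ferroxidase Heph in each library, on a log axis of its own for each gene; points are libraries numbered by replicate and lines are means (n = 3). Aco1 is at 55.7 FPKM or more in every fat library and at 5.05 to 6.12 FPKM in soleus, and Hjv is at 1.02 FPKM or less in fat and at 210.2 FPKM or more in soleus.

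Ferritin handling and iron chaperones had 6 listed genes, of which 5 had a row and 4 were tested. Ncoa4, the receptor that carries ferritin to the lysosome, stood at 5.67, 5.31 and 4.25 FPKM in brown fat, 4.97, 4.91 and 5.13 FPKM in white fat, and 1.32, 1.14 and 1.23 FPKM in soleus. It was 1.44 log2 units higher in brown fat than in soleus (standard error 0.09, limma adjusted p = 7.9e-08), and its difference between brown and white fat was 0.01 (standard error 0.09, limma adjusted p = 0.93). The list had 2 higher and 1 lower in brown fat against white fat (0 and 3 after rescaling). It had 4 higher and 0 lower in brown fat against soleus, and 2 higher and 0 lower for white fat against soleus (2 and 2 with median of ratios scaling).

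Plasma proteins of the acute phase, which the liver raises together with haptoglobin and hemopexin, had 18 listed genes, of which 14 had a row and 5 passed the filter. In brown fat against white fat 0 rose and 3 fell, in brown fat against soleus 2 rose and 2 fell, and in white fat against soleus 5 rose and 0 fell, counts that were 0 and 5, 2 and 2, and 5 and 0 after rescaling. These counts are partly set by the filter. Saa3 passed it only through white fat, at 7.74, 4.46 and 11.8 FPKM. Itih4 passed it only through fat libraries, so soleus could not be the higher tissue for either gene. Lbp, the lipopolysaccharide binding protein, differed by -4.49 log2 units in brown fat against white fat (standard error 0.11, limma adjusted p = 3.6e-10). C3, the complement component, stood at 336, 231 and 186 FPKM in brown fat, 323, 263 and 344 FPKM in white fat, and 9.17, 4.35 and 4.14 FPKM in soleus. Lcn2, a secreted protein that binds bacterial iron carriers, was the 1 tested gene of 4 other secreted iron and haem binders. It stood at 1.14, 0.733 and 0.697 FPKM in brown fat, 12.2, 2.60 and 12.2 FPKM in white fat, and 0.351, 0.125 and 0.238 FPKM in soleus, and differed by -2.22 log2 units in brown fat against white fat (standard error 0.40, limma adjusted p = 0.00051). Lcn2 too passed the filter by way of white fat, since brown fat replicate 1 was its only other library at 1 FPKM or more. White fat therefore had to be its higher tissue, and nothing is read from this call.

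**Figure D5:**
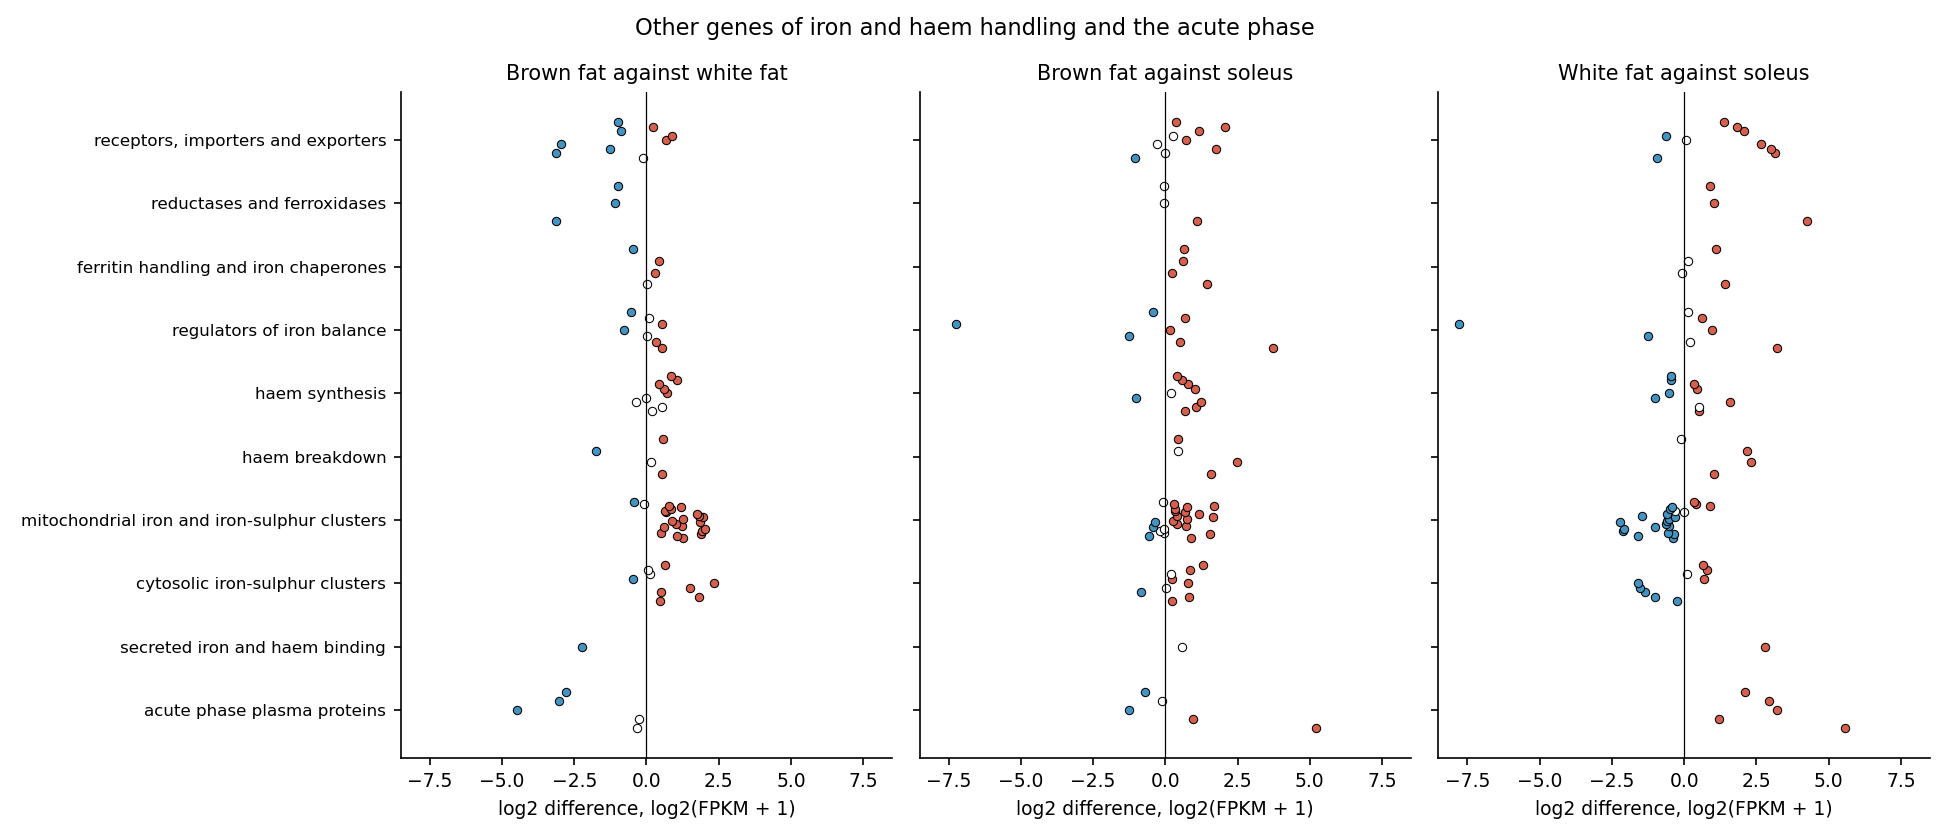
Differences on log2(FPKM + 1) for each tested gene of the other iron, haem and acute phase lists, in brown fat against white fat, brown fat against soleus and white fat against soleus. Red points are called higher and blue points lower in the first tissue at a limma adjusted p under 0.05, and open points are not called; of the mitochondrial list 20 are higher in brown fat against white fat and 17 lower in white fat against soleus.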

How the data were processed

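Transcript levels were measured by RNA-seq of total RNA, with 3 libraries a tissue made by an Illumina TruSeq guide, per the labels' protocols. The authors deposited FPKM values in 1 matrix of 18401 rows named by RefSeq accessions; TopHat 1.4.1, Cufflinks 2.0.1 and build mm9 are named per the submitters' processing notes. Strand, annotation version and read totals were not given in the sources used here. FPKM divides by the mapped total, so a few abundant transcripts lower all others.

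Accessions were matched to symbols, 18308 in a RefSeq gene table of build GRCm38, used for names alone, and 38 in GENCODE. The 55 rows without a symbol and the 3 with several were left out, and held between 0.0339% and 0.36% of a library's FPKM. Rows were summed for the 541 symbols with several. Relative depth came from values at or under 0.3 FPKM, where 34 of 36 pairs of libraries lay within 0.03 log2 units of 1 chain of depths.

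All 9 libraries were fitted together in limma 3.58.1 under R 4.3.3 on log2(FPKM + 1), with a trend of variance on mean, 6 residual degrees of freedom, and the 9913 genes at 1 FPKM or more in 3 or more libraries. Tests were two-sided, with Benjamini-Hochberg adjustment over all tested genes within a comparison. Changes of low genes are understated on this scale. The same fit was first tested on simulated data of known changes.

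The members and the lists were chosen with earlier results of these data known. Genes named from a list were the 2 called genes with the largest difference per direction and comparison that averaged 5 FPKM or more in the higher tissue, plus the gene with the highest mean. Dio2 and Elovl3 were named after their values were seen, and the other brown adipocyte markers are given beside them. Marker lists are given as summed levels. Likeness was sought among tested genes that averaged 10 FPKM or more in their highest tissue and were not listed at 0 throughout a tissue. Replicate numbers come from the labels and do not pair the libraries. Alternatives covered the pseudocount, the filter, 4 scalings, the libraries in the fit, the variance trend, the replicate block, symbols with several rows and each library left out. The gene in the study's title and some genes that the naming rule met are not reported here.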

Additional observations from a re-analysis of the deposited data

How the results depend on the processing

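Over 21 alternatives, the 21 counts stayed within 1.5 times in 427 of 441 recalculations, and the 73 differences of named list genes kept direction and call in 1503 of 1530. The 27 member differences moved by more than the spread between libraries in 64 of 567. After rescaling to a common FPKM total, brown fat against white fat gave 23 iron genes higher and 27 lower, 5 acute phase genes lower and 0 members at least 1 log2 unit higher, and white fat against soleus gave 14 iron genes lower. In brown fat against soleus, iron genes called lower numbered 20 with median of ratios scaling, 17 with upper quartile scaling and 16 with quantile normalization. Acute phase genes higher in brown fat against soleus numbered 1 with a filter on a mean of at least 1 FPKM, and 1 to 2 over leave-one-out fits, with 1 without brown fat replicate 2, white fat replicate 1 or white fat replicate 3. Acute phase genes higher in white fat against soleus ranged from 3 to 5 over leave-one-out fits, with 3 without white fat replicate 1 or 3, where fewer genes passed the filter. Some named genes turned direction after rescaling: in brown fat against white fat Slc46a1 was -0.27, Pcbp2 -0.13, Pcbp1 -0.28, Aco1 -0.05, Hmox2 -0.02 and Blvra -0.03, and in white fat against soleus Fech was 0.01. Slc25a28 was -0.04 in white fat against soleus with median of ratios scaling. Abcg2 has 2 rows, and its sum gave -0.94 there and -1.05 in brown fat against soleus. With only the row of the highest mean, these were 0.09 and -0.02, so its lower level in fat rests on the other row. The cause was not tested for the other genes named here. Same-numbered libraries deviated from their tissue means with correlations of -0.22 to 0.0774, and in no comparison did every library correlate best with its own number. A fit with the replicate number as a block called 41 iron genes higher and 15 lower in brown fat against white fat, 43 and 9 for brown fat against soleus, and 28 and 30 for white fat against soleus. Precision is limited by 3 libraries a tissue and an unknown depth.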
